A study of Homo sapiens with 9 samples.

Results

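ATF4, the transcription factor at the centre of the integrated stress response, and 9 of its best known downstream genes were followed in RNA recovered with the CCR4-NOT complex and in input RNA of HEK293T cells. The 10 genes, ATF4, DDIT3, TRIB3, PPP1R15A, CHAC1, DDIT4, SLC7A11, PSAT1, PHGDH and ASNS, were chosen by symbol as known members of this response, and all 10 were found among the 30956 genes of the deposited table. All 10 passed the filter on low values.

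The integrated stress response starts when a kinase such as PERK, GCN2, PKR or HRI phosphorylates the initiation factor eIF2. General translation then falls, while ATF4 mRNA, which carries upstream open reading frames, is translated more. ATF4 binds composite C/EBP-ATF elements with C/EBP partners and switches on genes for amino acid supply, redox balance and, in prolonged stress, cell death. Many mRNAs of such inducible programmes are short-lived, and CCR4-NOT starts mRNA decay by shortening the poly(A) tail.

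The series held 3 RNA immunoprecipitation (RIP) libraries, in which CCR4-NOT was pulled down through V5-tagged CNOT7, a deadenylase subunit, with the substitution D40A that impairs its catalytic activity. It also held 6 libraries of input RNA, 3 after a 24 h culture with doxycycline (3 µg/mL) and 3 after the same culture without it. HEK293T is a human embryonic kidney line, and all 9 libraries were made from cytoplasmic RNA after removal of ribosomal RNA, with single-end reads of 75 bp. The labels do not say what doxycycline switched on, whether the cells used for RIP received it, whether the tagged cells were 1 clone, or whether replicates were separate cultures. P-values therefore measure the spread between libraries, which may be technical, and RIP from cells without the tag was not analysed here.

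The deposited table listed 3 input columns, whose names do not give the doxycycline status. These are called the tabulated inputs. The other 3, called the remaining inputs, had no column, but the table's mean was over 9 libraries, taken to be those of the series, so that their sum could be derived for every gene and split into whole reads of each library for 99.8% of genes. Their doxycycline status is not known either, and it was not inferred from any value. The tested comparisons were RIP over the tabulated inputs, RIP over the remaining inputs, and the remaining over the tabulated inputs. Levels below are counts divided by the authors' size factors, and are compared between libraries for the same gene only, since they were not divided by gene length. In bulk libraries, fewer cells with a transcript and less of it per cell cannot be told apart.

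The RIP libraries held 37140622 to 40764899 reads in genes and the tabulated inputs 37290120 to 38918356, so that the limit which a count of 0 allows, 3 reads, was 0.0736 to 0.0808 CPM (counting error only). Mitochondrial genes took 0.931% to 1.12% of the reads in the RIP libraries and 18.6% to 26.6% in the tabulated inputs. RIP replicate 2 stood apart: 14786 genes had no read in it, against 6398 and 6720 in the other RIP libraries. CNOT7 averaged 86982 ± 11495 normalized counts in RIP, 4240 ± 185 in the remaining inputs and 24800 ± 498 in the tabulated inputs (SD, n = 3 each). All 6 markers of HEK293 cells were in the table, with summed levels of 23200 to 24200 in RIP, 34400 to 36800 in the remaining inputs and 36600 to 40300 in the tabulated inputs. Of 4 markers of other cell types, ALB, with 0 to 10.8 in RIP and 0 in all inputs, had a row.

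The 250 bases upstream of 1 RefSeq start per gene, that of the first entry in the promoter table used (GRCh38.p14), were searched for TGATGNAA, the core of the C/EBP-ATF element, on both strands. A match was found in 2 of the 9 genes with a promoter sequence, and in 3.19% of 27305 promoters of the same length. Both are shown because they carry the letters that ATF4 is known to bind, with the match in capitals. SLC7A11 had no entry. For ASNS, TRIB3 and DDIT3 the start used lies inside the full extent of the gene printed with its values, which spans all transcripts. A match is a description of the sequence and not evidence of binding.
CHAC1, chr15:40953221-40953470, plus strand, match on the strand opposite to the gene 209 to 202 bases upstream: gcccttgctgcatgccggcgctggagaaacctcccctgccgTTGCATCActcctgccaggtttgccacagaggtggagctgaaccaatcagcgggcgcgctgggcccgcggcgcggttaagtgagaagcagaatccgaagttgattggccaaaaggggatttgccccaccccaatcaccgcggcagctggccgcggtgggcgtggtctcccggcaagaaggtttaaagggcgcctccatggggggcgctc
ASNS, chr7:97872409-97872658, minus strand, match on the strand of the gene 68 to 61 bases upstream: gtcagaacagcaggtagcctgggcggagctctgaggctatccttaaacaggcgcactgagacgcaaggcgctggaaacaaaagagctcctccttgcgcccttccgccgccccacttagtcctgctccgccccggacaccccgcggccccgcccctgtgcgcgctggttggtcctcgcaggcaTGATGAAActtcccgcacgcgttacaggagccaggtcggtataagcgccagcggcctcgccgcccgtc

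ATF4 mRNA did not pass limma's main test in any of the 3 comparisons. ATF4 (chromosome 22, 39520559 to 39522686, plus strand) had 19879, 22756 and 25537 normalized counts in RIP, against 26011, 25321 and 27811 in the remaining inputs and 25215, 26661 and 30866 in the tabulated inputs. The RIP values overlapped with both sets of inputs. The log2 fold of RIP was -0.28 over the tabulated inputs (SE 0.13, limma adjusted p = 0.11) and -0.22 over the remaining inputs (SE 0.11, limma adjusted p = 0.12). The authors' deposited table listed the same fold, -0.28, with a DESeq2 adjusted p of 0.044. Scaling each library to its total count turned the fold over the tabulated inputs to 0.21 (limma adjusted p = 0.27), a scaling under which the median of all genes was 0.45 in place of -0.04. Against all 6 inputs together the log2 fold was -0.25 (limma adjusted p = 0.044). With the column numbers as a block, described at the end, the fold over the tabulated inputs also passed (limma adjusted p = 0.012). The log2 fold of the remaining over the tabulated inputs was -0.06 (SE 0.11, limma adjusted p = 0.76).

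DDIT3 encodes CHOP, the transcription factor of the late, pro-apoptotic phase of the response, and lies on chromosome 12 (57516588 to 57520517, minus strand). It had 354, 418 and 530 normalized counts in RIP, against 326, 447 and 349 in the remaining inputs and 141, 201 and 95 in the tabulated inputs. All RIP and all remaining input libraries lay above the tabulated inputs, while RIP and the remaining inputs overlapped. DDIT3 was 3.06-fold higher in RIP than in the tabulated inputs (log2 fold 1.61, SE 0.35, limma adjusted p = 0.0026). Against the remaining inputs the log2 fold was 0.21 (SE 0.31, limma adjusted p = 0.59). The remaining inputs were 2.65-fold above the tabulated ones (log2 fold 1.40, SE 0.31, limma adjusted p = 0.0069). DDIT3 overlaps MARS1, a tRNA synthetase gene, and no source used here says whether counting used the strand, so their reads may be shared. MARS1, named for this overlap, fell in RIP relative to the tabulated inputs (log2 fold -0.74, limma adjusted p = 0.00056) and the remaining inputs (log2 fold -1.44, limma adjusted p = 2.7e-07). It rose, as DDIT3 did, in the remaining over the tabulated inputs (log2 fold 0.70, limma adjusted p = 0.00094).

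TRIB3 encodes a pseudokinase that is induced by ATF4 and CHOP and feeds back on them (chromosome 20, 380760 to 397559, plus strand). It had 1448, 1583 and 1823 normalized counts in RIP, 7172, 6404 and 7595 in the remaining inputs, and 1571, 1778 and 1655 in the tabulated inputs. RIP overlapped with the tabulated inputs, and every remaining input was above all other libraries. The log2 fold of RIP was -0.05 over the tabulated inputs (SE 0.14, limma adjusted p = 0.81) but -2.13 over the remaining inputs (SE 0.12, limma adjusted p = 2.6e-08). TRIB3 rose 4.22-fold in the remaining relative to the tabulated inputs (log2 fold 2.08, SE 0.12, limma adjusted p = 5.1e-07). Under total-count scaling the fold of RIP over the tabulated inputs was 0.45 (limma adjusted p = 0.031), equal to the median of all genes under that scaling.

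PPP1R15A encodes GADD34, the inducible subunit that brings protein phosphatase 1 to eIF2 and ends the response (chromosome 19, 48872421 to 48876058, plus strand). Its levels were 2030, 2507 and 2575 normalized counts in RIP, against 2003, 2174 and 2114 in the remaining inputs and 747, 641 and 623 in the tabulated inputs. As for DDIT3, RIP overlapped with the remaining inputs and lay above all tabulated ones. The gene was 3.52-fold higher in RIP than in the tabulated inputs (log2 fold 1.82, SE 0.16, limma adjusted p = 4.4e-06). Over the remaining inputs the log2 fold was 0.17 (SE 0.13, limma adjusted p = 0.30). The remaining inputs exceeded the tabulated inputs 3.13-fold (log2 fold 1.65, SE 0.13, limma adjusted p = 7.6e-06).

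CHAC1 encodes an enzyme that breaks down glutathione, and its upstream sequence is shown above (gene at chromosome 15, 40953471 to 40956512, plus strand). Counts were 1775, 1782 and 2439 in RIP, 1790, 1711 and 1893 in the remaining inputs, and 288, 500 and 543 in the tabulated inputs, all normalized. The tabulated inputs were lower than every other library. CHAC1 was 4.61-fold higher in RIP than in the tabulated inputs (log2 fold 2.20, SE 0.25, limma adjusted p = 2.1e-05), the highest of the 10 folds in that comparison. The log2 fold of RIP over the remaining inputs was 0.14 (SE 0.22, limma adjusted p = 0.62), and -0.015 without RIP replicate 3 (limma adjusted p = 0.96). In the remaining inputs CHAC1 was 4.19-fold above the tabulated inputs (log2 fold 2.07, SE 0.22, limma adjusted p = 5.9e-05).

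DDIT4 was the only one of the 10 genes that passed limma's test as higher in RIP than in both sets of inputs. It encodes REDD1, an inhibitor of mTORC1 signalling that also answers to hypoxia and glucocorticoids (chromosome 10, 72273924 to 72276036, plus strand). RIP held 19012, 17100 and 23363 normalized counts of DDIT4, against 6339, 6273 and 6580 in the remaining inputs and 5263, 5205 and 5310 in the tabulated inputs. No group overlapped with another, and RIP stood far above both sets of inputs. The gene was 3.74-fold higher in RIP than in the tabulated inputs (log2 fold 1.90, SE 0.13, limma adjusted p = 9.6e-07) and 3.07-fold higher than in the remaining inputs (log2 fold 1.62, SE 0.11, limma adjusted p = 1e-07). Between the inputs the log2 fold, remaining over tabulated, was 0.28 (SE 0.11, limma adjusted p = 0.089; edgeR adjusted p = 0.045).

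**Figure D1:**
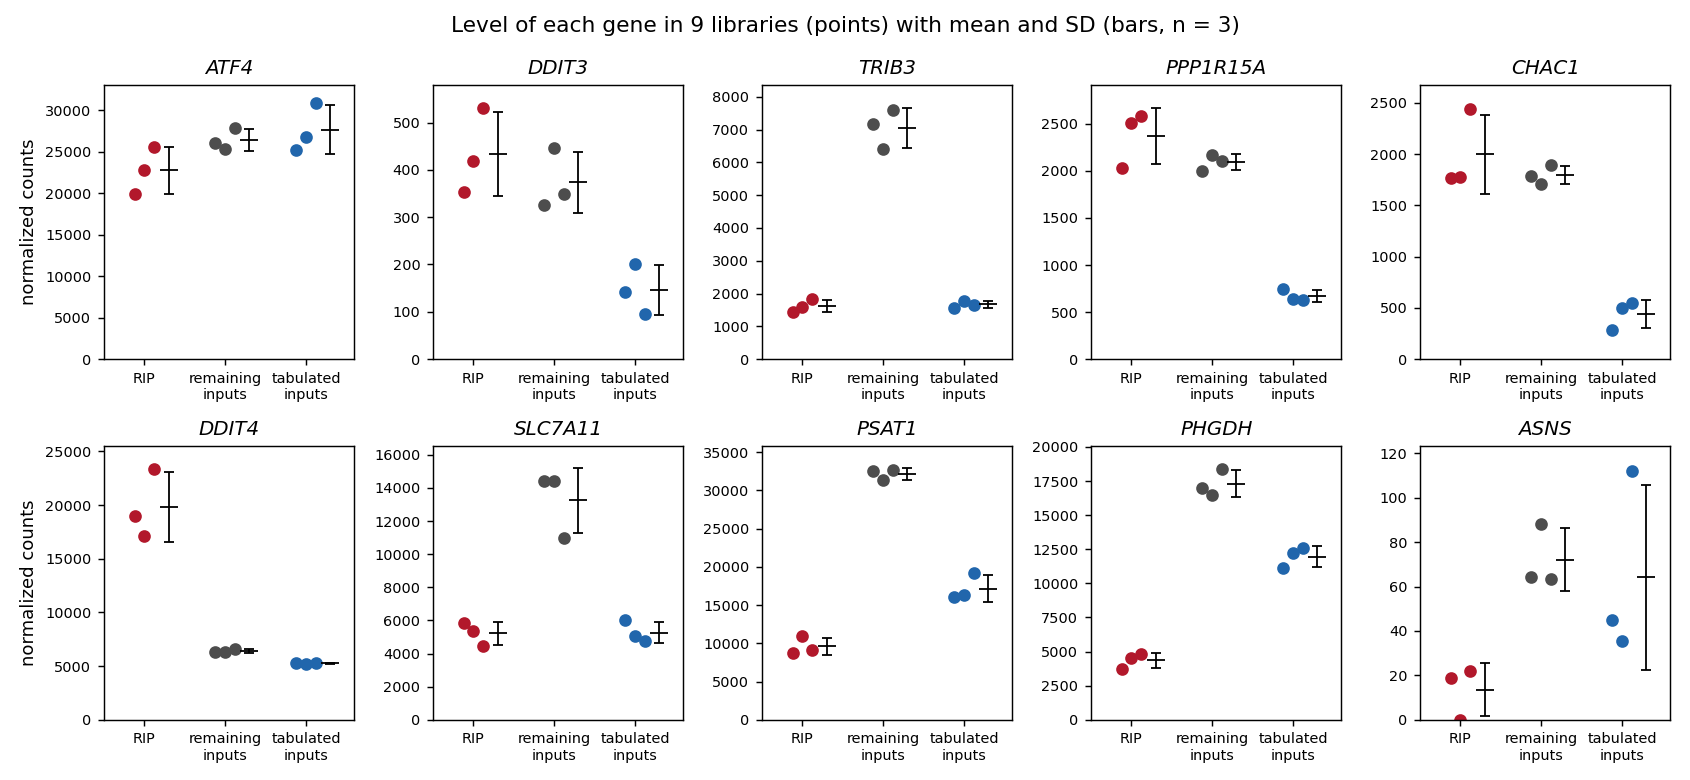
Normalized counts (linear axes from 0) of each gene in the 3 RIP libraries, the 3 remaining inputs and the 3 tabulated inputs; points are libraries and bars the mean ± SD. DDIT3, PPP1R15A and CHAC1 in RIP overlap with the remaining inputs, TRIB3 and SLC7A11 in RIP overlap with the tabulated inputs, and DDIT4 in RIP stands above all inputs.

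SLC7A11 encodes xCT, the cystine importer that feeds glutathione synthesis (chromosome 4, 138164097 to 138242349). It had 5818, 5380 and 4485 normalized counts in RIP, 14426, 14360 and 10989 in the remaining inputs, and 5996, 5051 and 4765 in the tabulated inputs. As for TRIB3, RIP overlapped with the tabulated inputs and lay below all the remaining ones. The log2 fold of RIP was -0.01 over the tabulated inputs (SE 0.14, limma adjusted p = 0.95) and -1.34 over the remaining inputs (SE 0.14, limma adjusted p = 3.1e-06). SLC7A11 rose 2.51-fold in the remaining relative to the tabulated inputs (log2 fold 1.33, SE 0.14, limma adjusted p = 5.3e-05). With total-count scaling the fold of RIP over the tabulated inputs was 0.48 (limma adjusted p = 0.020), near the median of all genes under that scaling. SLC7A11 overlaps SLC7A11-AS1, a long non-coding RNA gene that is not listed by that symbol among the deposited genes. Since the strand setting of counting is not known, their reads may be shared.

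PHGDH and PSAT1, which act in serine synthesis, were lower in RIP than in both sets of inputs. PHGDH encodes the enzyme of the committed step from glycolysis into serine (chromosome 1, 119711934 to 119744215, plus strand). PHGDH had 3720, 4533 and 4806 normalized counts in RIP, against 17021, 16549 and 18409 in the remaining inputs and 11094, 12181 and 12558 in the tabulated inputs. The groups did not overlap, with RIP lowest and the remaining inputs highest. PHGDH fell by 1.46 on the log2 scale in RIP relative to the tabulated inputs (SE 0.13, limma adjusted p = 3.6e-06) and by 2.0 relative to the remaining inputs (SE 0.11, limma adjusted p = 2.2e-08). It was 1.45-fold higher in the remaining than in the tabulated inputs (log2 fold 0.54, SE 0.11, limma adjusted p = 0.0046).

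PSAT1 encodes the aminotransferase of the next step (chromosome 9, 78297125 to 78330093, plus strand). Its levels were 8786, 10866 and 9124 normalized counts in RIP, 32503, 31271 and 32732 in the remaining inputs, and 15959, 16294 and 19153 in the tabulated inputs. The order was that of PHGDH, again without overlap. PSAT1 fell in RIP, with log2 folds of -0.84 over the tabulated inputs (SE 0.13, limma adjusted p = 0.00020) and -1.75 over the remaining inputs (SE 0.11, limma adjusted p = 4.7e-08). It was 1.88-fold higher in the remaining than in the tabulated inputs (log2 fold 0.91, SE 0.11, limma adjusted p = 0.00013). The split of PSAT1 into single remaining inputs had more than 1 solution under a wider condition than the one used, while their mean normalized count does not depend on it. The SEs, adjusted p-values and lack of overlap that involve the remaining inputs do rest on the split used. Total-count scaling left a log2 fold of -0.34 over the tabulated inputs (limma adjusted p = 0.053).

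ASNS, the glutamine-dependent asparagine synthetase gene whose upstream sequence is shown above, gave few reads (gene at chromosome 7, 97851677 to 97928441, minus strand). It had 23, 0 and 28 reads in RIP, 68, 77 and 55 in the remaining inputs, and 43, 31 and 96 in the tabulated inputs. RIP was below both sets of inputs in every library, and its 0 fell in replicate 2, the library with the most genes at 0. The log2 fold of RIP was -2.89 over the tabulated inputs (SE 1.29, limma adjusted p = 0.092) and -3.23 over the remaining inputs (SE 1.08, limma adjusted p = 0.022). Without RIP replicate 2 these were -1.42 (limma adjusted p = 0.096) and -1.75 (limma adjusted p = 0.017). The call against the remaining inputs was lost with edgeR (log2 fold -2.39, edgeR adjusted p = 0.15) and without remaining input 1, 2 or 3 (limma adjusted p = 0.052, 0.068 and 0.051). The authors' deposited table gave -2.23 over its inputs, with an adjusted p of 0.038 by DESeq2. ASNS overlaps a read-through gene, CZ1P-ASNS, and 2 pseudogenes, so its reads could be divided in counting, and its level is uncertain.

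Over the tabulated inputs, 4 of the 10 genes were higher in RIP (DDIT3, PPP1R15A, CHAC1 and DDIT4) and 2 were lower (PSAT1 and PHGDH) in limma's test with Benjamini-Hochberg adjustment over all genes. Of all 16765 genes tested, 22.4% were higher and 21.2% lower. The authors' deposited table called 4 of the 10 higher and 4 lower, ATF4 and ASNS being added, where 20.6% of 20649 genes were higher and 19.9% lower. The median log2 fold of the 10 genes was -0.03, beside -0.04 for all genes. Under total-count scaling 6 of the 10 were higher and 1 was lower, while 6142 genes of the whole table were higher and 1651 lower, in place of 3758 and 3550.

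Over the remaining inputs, 1 of the 10 genes was higher in RIP (DDIT4) and 5 were lower (TRIB3, SLC7A11, PSAT1, PHGDH and ASNS), where 26.4% of 16854 genes were higher and 27.2% lower. The median log2 fold of the 10 was -0.78, beside -0.09 for all genes. Scaling to totals without the 67 genes that could not be split moved the median of all genes to 0.01. Total-count scaling of RIP over the tabulated inputs used the totals of all genes, so the shifts of the medians cannot be compared. Groups of 3 libraries often did not overlap: RIP lay wholly above the tabulated inputs for 27.4% of the genes tested and wholly below for 27.3%, above the remaining inputs for 30.2% and below for 32.7%, and the remaining inputs lay above the tabulated ones for 23.2% and below for 19.3%. The comparisons with either set of inputs share the RIP libraries. Leaving out RIP replicate 2 gave the same counts of the 10 genes in each.

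The remaining inputs themselves were higher than the tabulated inputs for 7 of the 10 genes, namely DDIT3, TRIB3, PPP1R15A, CHAC1, SLC7A11, PSAT1 and PHGDH, and lower for 0, with 10.6% of 16854 genes higher and 9.65% lower. Of the 3 that did not pass limma's test, DDIT4 had an unadjusted p of 0.023, ATF4 of 0.60 and ASNS of 0.76. The median log2 fold of the 10 genes was 1.12, beside 0.04 for all genes. These 7 calls were also made by edgeR, under scaling to totals without the unsplit genes, and without each library in turn. CNOT7 moved the other way between the same libraries (log2 fold -2.55, limma adjusted p = 1.8e-08), and its part in the result was not tested.

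**Figure D2:**
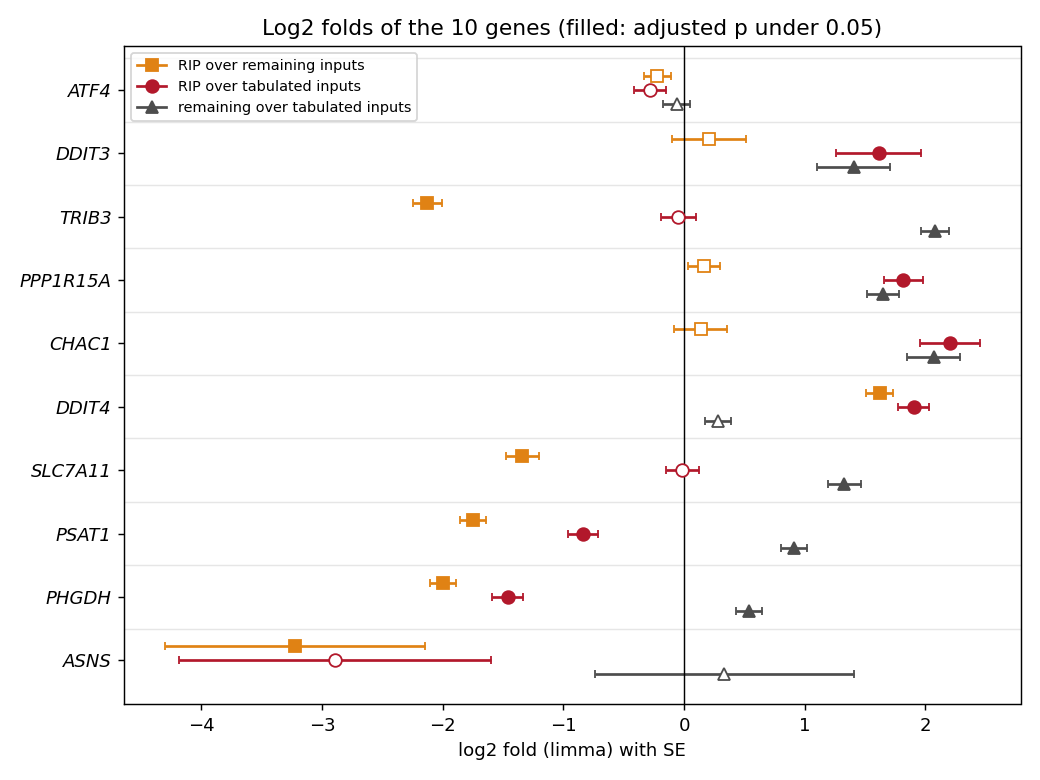
Log2 folds with SE of the 10 genes in the 3 comparisons; filled symbols have a limma adjusted p under 0.05. In RIP against either set of inputs, DDIT4 has filled symbols above 0, and PSAT1 and PHGDH have filled symbols below 0. For the remaining over the tabulated inputs, 7 genes have a filled symbol above 0.

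A wider set of 93 pathway genes, in 7 lists without the 10 above, was counted in the same fits. In RIP over the tabulated inputs 19 were higher and 48 lower, beside 22.4% and 21.2% of all tested genes, and total-count scaling gave 27 higher and 24 lower. Counts of single lists below use the authors' size factors and may shift with that scaling too. In RIP over the remaining inputs, where SLC7A1 could not be split and 92 were tested, 11 were higher and 67 lower, beside 26.4% and 27.2% of all genes. In the remaining over the tabulated inputs 47 of 92 were higher, beside 10.6% of all genes, and 2 were lower, beside 9.65%. These 2 were EIF2AK4 (GCN2; log2 fold -0.58, limma adjusted p = 0.0050) and HSP90B1 (an endoplasmic reticulum chaperone; log2 fold -0.48, limma adjusted p = 0.035). Both were named after their values were seen.

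The upstream machinery (eIF2 kinases, eIF2, eIF2B and the phosphatase) was mostly lower in RIP. Over the tabulated inputs 14 of 19 fell and 2 rose, beside 21.2% and 22.4% of all genes, with a list median of -0.61. Over the remaining inputs 15 fell and 3 rose, beside 27.2% and 26.4% of all genes. The 2 that rose over the tabulated inputs were PPP1R15B, the constitutive counterpart of GADD34 (log2 fold 1.45, limma adjusted p = 1.3e-06), and EIF2AK3, the PERK gene (log2 fold 1.08, limma adjusted p = 0.00090). PPP1R15B averaged 22625 ± 873 normalized counts in RIP, 10828 ± 403 in the remaining inputs and 8293 ± 132 in the tabulated inputs (SD, n = 3 each). Both also rose over the remaining inputs. PPP1CA, a catalytic subunit of protein phosphatase 1 (log2 fold -1.78, limma adjusted p = 2.3e-06), and EIF2B2, a subunit of the eIF2 exchange factor (log2 fold -1.42, limma adjusted p = 4.3e-05), fell most. Between the inputs 4 of the 19 were higher and 1 lower, beside 10.6% and 9.65% of all genes, with a median of 0.09.

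Other transcription factors of the response were higher in RIP than in the tabulated inputs for 4 of 6 genes and lower for 0 (median 0.97). The shares of all genes were 22.4% and 21.2%. CEBPB, a dimerization partner of CHOP and ATF4, rose with a log2 fold of 1.60 (limma adjusted p = 1.0e-05) and JDP2, a repressor of the same family, with 1.38 (limma adjusted p = 3.5e-05). Over the remaining inputs 1 of the 6 was higher and 3 were lower, beside 26.4% and 27.2% of all genes. The remaining inputs exceeded the tabulated ones for 4 of the 6, beside 10.6% of all genes, with a median of 1.25. ATF3, a stress-induced repressor, chosen after its values were seen, averaged 3000 ± 273 normalized counts in RIP, 7871 ± 661 in the remaining inputs and 1424 ± 108 in the tabulated inputs (SD, n = 3 each).

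The stress effectors downstream of ATF4 and CHOP rose in RIP over the tabulated inputs for 8 of 12 genes, beside 22.4% of all genes. In this list 1 gene fell, beside 21.2% of all genes: ERO1A, the oxidase of endoplasmic reticulum disulfides (log2 fold -0.44, limma adjusted p = 0.037). VEGFA, the angiogenic growth factor, had a log2 fold of 2.09 (limma adjusted p = 6.8e-07), and ADM2, a peptide hormone, of 1.67 (limma adjusted p = 0.019). Over the remaining inputs 4 of the 12 rose and 4 fell, beside 26.4% and 27.2% of all genes. VEGFA averaged 5167 ± 404 normalized counts in RIP, 3385 ± 50 in the remaining inputs and 1215 ± 103 in the tabulated inputs (SD, n = 3 each), so that it also rose in RIP over the remaining inputs (log2 fold 0.61, limma adjusted p = 0.00030). Between the inputs 9 of the 12 were higher in the remaining libraries, beside 10.6% of all genes, with a median of 1.60, the highest of the 7 lists. The largest of these folds was that of GDF15, a stress cytokine, with 337 ± 50 normalized counts in the remaining inputs and 29 ± 18 in the tabulated inputs (SD, n = 3 each; log2 fold 3.77, limma adjusted p = 0.0010); it was chosen after its values were seen.

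Of 12 amino acid and folate enzymes 8 fell and 0 rose over the tabulated inputs (median -0.99), beside 21.2% and 22.4% of all genes. All 12 fell over the remaining inputs (median -1.64), beside 27.2% of all genes. PSPH, the enzyme after PSAT1 in serine synthesis, chosen after its values were seen, had a log2 fold of -0.22 over the tabulated inputs (limma adjusted p = 0.31) and fell over the remaining inputs (log2 fold -1.31, limma adjusted p = 8.5e-06). SHMT2, the mitochondrial serine hydroxymethyltransferase, had a log2 fold of -1.44 (limma adjusted p = 7.8e-06) and PYCR1, a proline synthesis enzyme, of -1.26 (limma adjusted p = 1.7e-05), both over the tabulated inputs. Of 13 genes for tRNA synthetases and tRNA export, 11 fell and 0 rose over the tabulated inputs and 12 fell over the remaining inputs, beside the same shares. Over the tabulated inputs WARS1 was at -1.26 (limma adjusted p = 6.1e-06) and YARS1 at -1.23 (limma adjusted p = 1.8e-05). In the remaining over the tabulated inputs 9 of the 12 enzymes (median 0.75) and 10 of the 13 synthetase and export genes (median 0.50) were higher, and 0 were lower. The shares of all genes there were 10.6% and 9.65%.

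Most amino acid transporters did not pass the test in RIP over the tabulated inputs. Over the tabulated inputs 1 of 11 was higher in RIP, SLC38A2, the SNAT2 transporter (log2 fold 0.77, limma adjusted p = 0.00065), and 3 were lower, beside 22.4% and 21.2% of all genes. The largest of these falls were those of SLC36A4 (log2 fold -1.65, limma adjusted p = 0.0016) and SLC43A1 (log2 fold -0.57, limma adjusted p = 0.029). Over the remaining inputs 9 of the 10 tested were lower and 0 higher, beside 27.2% and 26.4% of all genes. Between the inputs 8 of the 10 were higher in the remaining libraries and 0 lower, beside 10.6% and 9.65% of all genes, with a median of 0.75.

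The IRE1 and ATF6 arms of the unfolded protein response run beside PERK in endoplasmic reticulum stress. Of 20 genes of these arms 3 were higher in the remaining than in the tabulated inputs and 1 was lower, near the 10.6% and 9.65% of all genes, and the median of 0.03 lay at that of all genes. HSPA5, the chaperone BiP, chosen after its values were seen, had a log2 fold of -0.04 there (limma adjusted p = 0.84), while XBP1, the factor downstream of IRE1, had one of 1.37 (limma adjusted p = 1.4e-05). In RIP over the tabulated inputs 4 of the 20 rose, near the 22.4% of all genes, with DNAJB9, a co-chaperone, at 1.91 (limma adjusted p = 2.0e-06) and XBP1 at 0.94 (limma adjusted p = 0.00015). In the same comparison 11 of the 20 fell, beside 21.2% of all genes, with PDIA6, a disulfide isomerase, at -1.56 (limma adjusted p = 1.4e-06) and HYOU1, a chaperone, at -1.46 (limma adjusted p = 3.2e-06). Against the remaining inputs, 3 of the 20 were higher in RIP and 12 lower, beside 26.4% and 27.2% of all genes. The difference between these lists and the others was not tested.

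**Figure D3:**
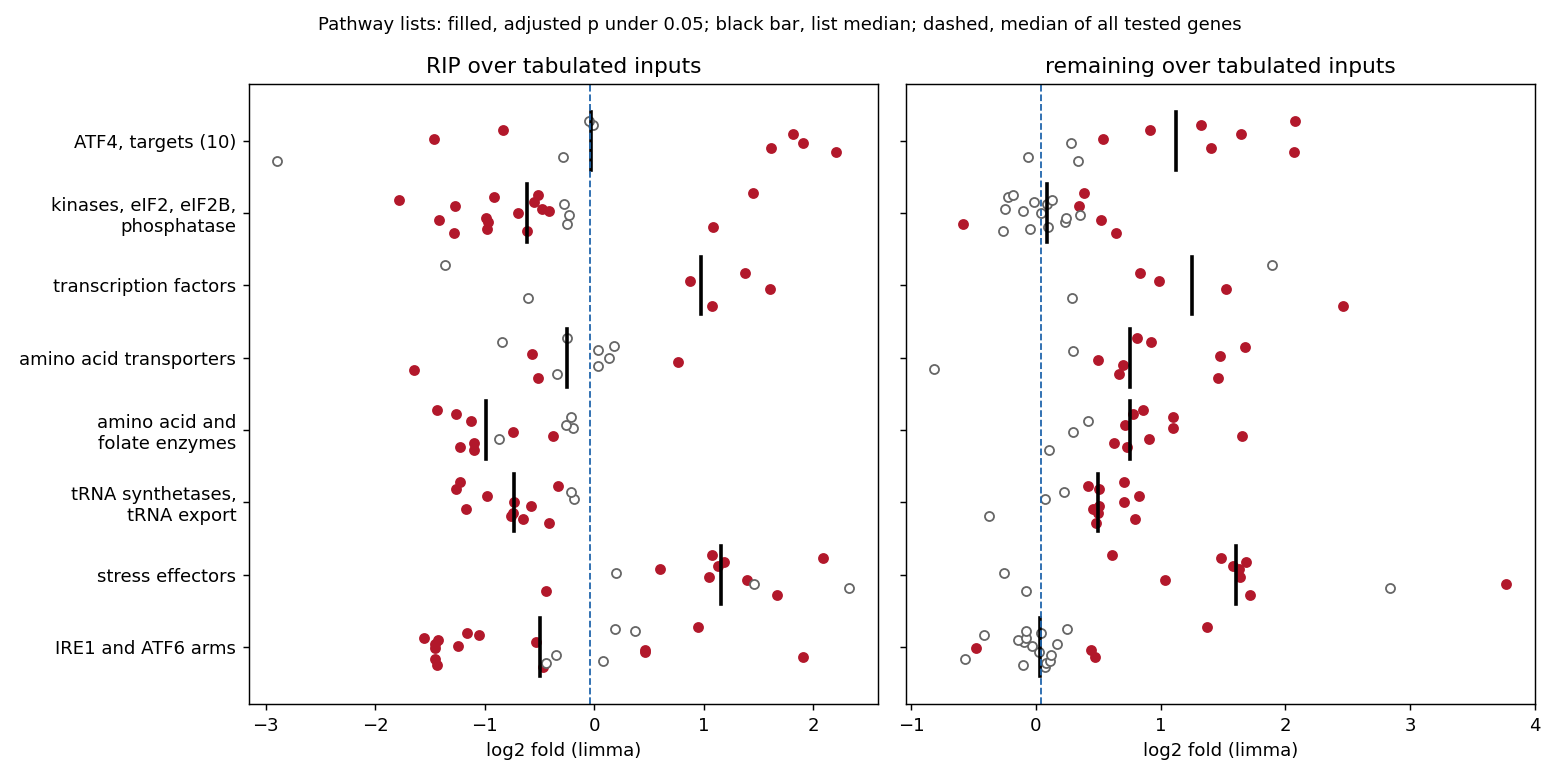
Log2 folds of each gene of the 10 and of the 7 pathway lists, in RIP over the tabulated inputs (left) and in the remaining over the tabulated inputs (right). Filled points have a limma adjusted p under 0.05, black bars are list medians and the dashed line is the median of all tested genes. On the right, 6 of the 8 medians lie at 0.50 or above, and those of the upstream machinery and of the IRE1 and ATF6 arms lie at 0.09 and 0.03.

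The genes nearest to ATF4 over RIP and the tabulated inputs, by the Euclidean distance of log2 values centred on their mean over the 6 libraries, were MRPS26 (distance 0.054), STARD3NL (0.061), MRPS36 (0.067), BRD9 (0.070) and MAZ (0.077), among 12370 genes with a mean of at least 100. None of the other 9 genes was among these 5.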

How the data were processed

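The 10 genes and the 7 pathway lists were chosen with earlier results of these data known. Reads were processed with STAR, featureCounts and DESeq2 (build GRCh38), per the submitters' processing notes; no source used here gives versions, annotation, strand setting or filters. The deposited values of the RIP and input columns are a signal: the authors' counts per gene over a size factor of each library, and 100% of them came out as whole reads within 0.01 of a read. The authors' deposited table also gives a log2 fold change with its SE, a score (the Wald statistic), a p-value and an adjusted p-value.

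The deposited mean is over 9 libraries: 9 times it was below the sum of the 6 columns for 0 genes and equal to it for 5814. The difference was split into whole reads of 3 libraries from its 15 significant digits. For sums above 20000 each library was also required to lie within 1.3 times their mean, which 98.4% of genes with sums of 5000 to 20000 meet; sums above 150000 were left out. This gave 1 solution for 30889 genes. As a check, tabulated inputs were hidden and split the same way for a sample of the genes. All with 1 solution came back right, among them 190 of 193 genes with sums of 20000 to 150000. ATF4, TRIB3, SLC7A11, PHGDH and PSAT1 were split under the 1.3-fold condition. This condition bounds the spread that their single remaining inputs, and so their SEs and p-values, can show.

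The main test was limma 3.58.1 (trend) on log2 of the normalized value plus 1, for genes with a mean of at least 10, with Benjamini-Hochberg adjustment over all genes and a threshold of 0.05. Folds are differences of mean log2 values on that scale, which shrinks the folds of low genes, but can exceed the ratio of the means where 1 library is at 0, as for ASNS. RIP over the tabulated inputs used 6 libraries; the comparisons with the remaining inputs, added after the data were seen, used 9. The limma test of RIP over the tabulated inputs was run on simulated data first. On recovered reads, edgeR 4.0.16 and DESeq2 1.42.0 each called 4 of the 10 genes higher and 2 lower in RIP over the tabulated inputs, with 3703 and 3981 genes higher in all. Genes named were the 10, the 2 largest called folds in each direction of each list in RIP over the tabulated inputs, and the 5 nearest to ATF4; others are marked. Promoters and locations are from RefSeq tables of GRCh38.p14.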

Additional observations from a re-analysis of the deposited data

How the results depend on the processing

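The 4 genes higher and 2 lower of the 10 in RIP over the tabulated inputs were counted the same with other pseudocounts, low-value filters, sample weights, edgeR, DESeq2 and an adjusted p under 0.01. Total-count scaling gave 1 lower of the 10, 27 higher and 24 lower of the pathway genes, and 6142 higher and 1651 lower of all genes. The authors' deposited table gave 4 lower of the 10. A required 2-fold change gave 1 lower of the 10, 23 lower of the pathway genes, and 1904 higher and 1779 lower of all genes. Without each library in turn the 10 gave 4 higher and 2 to 3 lower, the pathway genes 18 to 20 higher and 37 to 47 lower, and all genes 3121 to 3824 higher and 2881 to 3719 lower. Over the remaining inputs, leaving out libraries gave 1 higher and 4 to 6 lower of the 10, and 6 to 9 higher and 62 to 67 lower of the pathway genes (6 higher at an adjusted p under 0.01), with 4029 to 4583 higher and 3943 to 4669 lower of all genes. Between the inputs it gave 7 higher and 0 lower of the 10, 39 to 45 higher and 1 to 3 lower of the pathway genes, and 1056 to 1602 higher and 979 to 1375 lower of all genes. The lowest of these counts of all genes, 1056 higher and 979 lower, came without remaining input 1. Between the inputs with no library left out, an adjusted p under 0.01 gave 898 higher and 704 lower of all genes and 1 lower of the pathway genes. Scaling to totals without the unsplit genes gave 4 lower of the pathway genes between the inputs, and edgeR 7 lower.

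Folds near 0 changed sign. Over the tabulated inputs, ATF4 was 0.21 under total-count scaling. TRIB3 was 0.45 under that scaling, 0.082 with totals that left out mitochondrial and small RNA, and -0.14 to 0.028 without each library in turn (the highest without RIP replicate 1). SLC7A11 was 0.48 and 0.12 under these scalings and -0.095 to 0.093 without each library in turn (0.083 without tabulated input 1 and 0.093 without RIP replicate 3). CHAC1 over the remaining inputs was as low as -0.015, without RIP replicate 3, and ATF4 between the inputs -0.12 to 0.024, the highest without tabulated input 3. The cause was not tested. The input columns are numbered, as are both kinds of input in the labels, so the number could be used as a block: this gave 4 higher and 3 lower of the 10 (ATF4 added, log2 fold -0.28, limma adjusted p = 0.012) and 4053 higher and 3925 lower of all genes. Nothing says that a number marks a shared culture. Deviations from the group means correlated at 0.255, 0.003 and 0.239 for numbers 1, 2 and 3 across 12370 genes. Pairs of unlike number ranged from -0.265 (RIP replicate 3, tabulated input 1) to 0.026 (RIP replicate 3, tabulated input 2). Pairs with a library of number 2 were all near 0, so these values do not settle whether numbers mark pairs. The main test used no block, since the labels state no pairing. The remaining inputs carry no number and were not blocked. Depth limits ASNS most, with 0 to 28 reads in RIP.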
